A study of Mus musculus with 6 samples.

Results

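Hdac4, Hdac5, Hdac7 and Hdac9 encode the class IIa histone deacetylases, and Mef2a, Mef2c and Mef2d encode factors of the myocyte enhancer factor 2 (MEF2) family that these deacetylases bind. The 7 genes were taken by symbol from the 46517 genes of the deposited count files, as a group of proteins that bind each other. The group was selected on the read counts and log2 changes of these genes in the same 6 cultures, so their changes are given as a description. No p is given for them, and where one of them is said to pass the threshold of the fit over all genes, this is not evidence for its change. Of the 7 genes, 6 had enough reads to enter the fit over 15862 genes, and Mef2c did not.

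Class IIa deacetylases carry little catalytic activity of their own on histones. They dock on MEF2 at its binding sites and recruit corepressor complexes that contain HDAC3, which holds MEF2 target genes down. Calcium/calmodulin-dependent kinases, protein kinase D and related kinases phosphorylate them, 14-3-3 proteins bind the phosphorylated form, and the deacetylase leaves the nucleus. MEF2 is best known for muscle, neuronal and vascular gene programmes.

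The cells were primary renal tubule epithelial cells (RTECs) grown from kidneys of wild type FvB mice, aged 4 to 6 weeks by the labels and somewhat younger by the methods of the study. All cultures grew in RPMI with serum, epidermal growth factor and an insulin, transferrin and selenium supplement, then spent 24 h without serum. The TGF-β1 group (n = 3) then received TGF-β1 at 50 ng/ml for 24 h, and the CTL group (n = 3) was labelled as control only. The study turned to these cultures in following the pathways downstream of the Notch ligand Jag1 and the receptor Notch2, with TGF-β1 as an inducer of Notch signalling. Each culture gave 1 poly(A) RNA sequencing library, with 28313080 to 34183497 reads counted on genes. The labels do not say whether the cultures came from separate mice, so p-values measure the spread between these cultures.

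Of the 6 genes chosen to check the treatment, 5 were higher with TGF-β1 by the edgeR quasi-likelihood test. Among them, Jag1, a Notch ligand, was 1.10 higher on the log2 scale (SE 0.11, adjusted p = 0.00436, edgeR), and Fn1 (1.04), Skil (0.76) and Smad7 (0.55) were higher too. Ccn2, the matricellular growth factor, differed by 0.18 (SE 0.08, adjusted p = 0.22 in edgeR), and was called higher, with the same difference, in a fit with the culture number as a block. The 7 general tubule markers summed to between 915 and 2635 CPM (counts scaled to a common library total) in every library. The proximal transporters Slc34a1, Slc5a2 and Slc22a6 had 10 reads or fewer in each. Of the other proximal markers, Lrp2 had 884 to 2444 reads and Cubn 120 to 162. Aqp1 had 30 to 518 and Hnf4a 6 to 39. Replicate 2 of both groups stood apart from the others. It carried 151 and 142 CPM of 4 Y-linked genes, and its Cdh1, Epcam and Krt8 counts were the lowest of each group. The other cultures held at most 0.172 CPM of the Y-linked genes, although the study describes male mice. The X-linked transcript Xist was at 516 to 633 CPM in those cultures. In replicate 2 it was at 237 CPM in CTL and 207 CPM with TGF-β1. Fitted differences of the 6 tested class IIa and Mef2 genes are therefore also given without both replicate 2 cultures.

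Across the 15862 genes, 793 were higher with TGF-β1 at an adjusted p under 0.05 (5%) and 1061 lower (6.69%), or 11.7% in either direction. Of the class IIa and Mef2 genes, Hdac9 and Mef2d passed in the higher direction, Hdac5 and Hdac7 in the lower, and Hdac4 and Mef2a in neither. The groups did not overlap for those 4 genes. Over all tested genes the groups did not overlap in 35.2%, with 17.2% higher and 18% lower. Nothing is read from the counts of the 7 genes, since these contrasts chose them. A fit with the culture number as a block called the same 4 genes in the same directions, where it called 15.1% of all genes higher, 19.1% lower and 34.2% in all. In bulk RNA a change in the number of cells of a type and a change in RNA per cell cannot be told apart. The plot of the 7 genes by culture, with Mef2b of the same family added, shows these values.

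**Figure D1:**
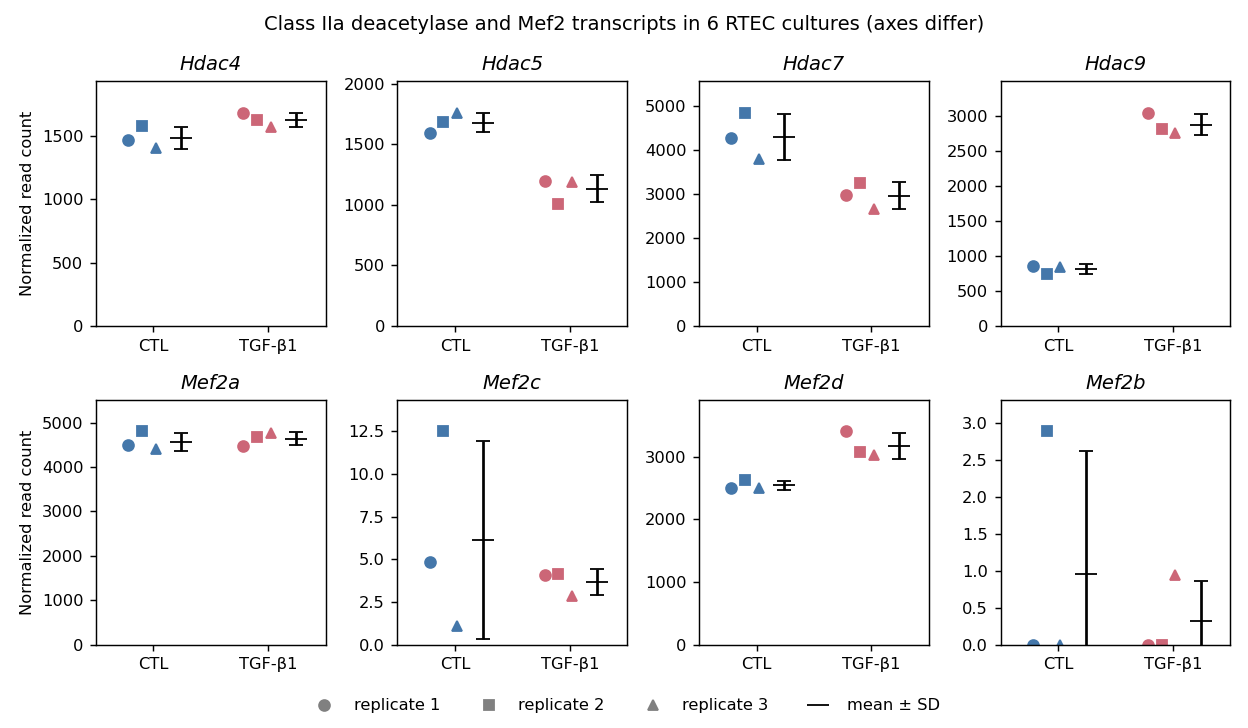
Normalized read count (vertical axis, from 0, a different range in each panel) of the 4 class IIa deacetylase genes, 3 Mef2 genes and Mef2b in 3 CTL and 3 TGF-β1 cultures, with the symbol giving the replicate and the bar the mean ± SD. Hdac9 lies at 737 to 856 in CTL and at 2759 to 3038 with TGF-β1, while Mef2c stays at 12.5 or lower in every culture.

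Hdac9, which has the largest genomic span of the 4 deacetylase genes, moved most. It lies on the minus strand of chromosome 12 from 34047580 to 34917095 (GRCm38; ENSMUSG00000004698.9), a span of 869516 bp. Its normalized read counts were 856, 737 and 844 in CTL replicates 1, 2 and 3, and 3038, 2805 and 2759 in the TGF-β1 replicates. Each treated culture therefore lay far above each control. The mean went from 812 ± 65.3 to 2867 ± 150 (SD, n = 3 each), a fold of 3.53 and a log2 difference of 1.82 (SE 0.08). Of the 793 genes called higher, its log2 change ranked 63 from the top. The same-numbered cultures differed by 1.83, 1.93 and 1.71 on the log2 scale, so the replicate 2 pair, which stood apart in other genes, gave a similar difference. Without both replicate 2 cultures the difference was 1.77, and with any 1 culture left out it was 1.75 to 1.86. Gene counts do not separate the full-length Hdac9 from the shorter form, known as MITR or HDRP, which lacks the deacetylase domain and still binds MEF2.

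RefSeq (GRCm38.p6) gives Hdac9 start sites far apart in the gene, and the 120 bases before 2 of them are shown because they would read out different first exons. Both are 5′ to 3′ on the minus strand, and capitals mark a match to the AP-1 site TGANTCA, the element of FOS and JUN dimers.
Hdac9, chr12:34917096-34917215: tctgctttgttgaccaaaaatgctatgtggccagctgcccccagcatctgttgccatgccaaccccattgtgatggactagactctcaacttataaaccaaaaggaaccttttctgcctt
Hdac9, chr12:34528890-34529009: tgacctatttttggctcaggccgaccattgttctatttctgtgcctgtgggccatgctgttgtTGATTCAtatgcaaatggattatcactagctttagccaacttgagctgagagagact
The match lies at -57 to -51 from the downstream start, and AP-1 letters occur in 7.81% of all 32851 windows searched. They also occur in 1 window of Hdac7, at 23 to 29, and in 1 of Mef2c, at -137 to -131. Windows ran from 250 bases before to 50 after each start, on both strands. The gene counts do not say which start was used. The first bases after the downstream start were not found in a GENCODE M21 transcript of Hdac9, while those after the other start were. The 2 Hdac9 windows held 44% and 45.3% G and C, below the median of 52.7% over all windows.

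The 2 genes that were lower encode the paralogs Hdac5 and Hdac7. Hdac5, a signal-responsive repressor studied in heart and muscle, lies on chromosome 11 from 102194432 to 102230166, minus strand (ENSMUSG00000008855.16). Its normalized read counts were 1598, 1683 and 1760 in CTL and 1201, 1005 and 1193 with TGF-β1. All 3 treated cultures were below all 3 controls. The mean fell from 1681 ± 80.8 to 1133 ± 111 (SD, n = 3), which is 1.48-fold lower (log2 difference -0.57, SE 0.08). Of the 1061 genes called lower, 748 fell further. Leaving out CTL replicate 1 or TGF-β1 replicate 1 gave -0.60 and -0.61, no longer past the threshold. Without both replicate 2 cultures it was -0.49.

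Hdac7, best known for keeping developing blood vessels intact and for thymocyte survival, lies on chromosome 15 from 97792664 to 97844502, minus strand (ENSMUSG00000022475.17). Normalized read counts were 4262, 4834 and 3780 in CTL and 2982, 3244 and 2647 with TGF-β1. The highest treated culture was again below the lowest control. The mean went from 4292 ± 528 to 2958 ± 299 (SD, n = 3), 1.45-fold lower (log2 difference -0.54, SE 0.11). The replicates of each group were more widely spread than those of Hdac5, yet they moved in parallel: the same-numbered cultures differed by -0.52, -0.58 and -0.51. With the culture number as a block the SE was 0.04. Dropping CTL replicate 1 left -0.54, dropping CTL replicate 2 left -0.44, and neither passed the threshold. The same held with -0.54 on dropping TGF-β1 replicate 1 and -0.46 on dropping TGF-β1 replicate 3. Without both replicate 2 cultures it was -0.51. Hdac7 is abundant in endothelium, and 8 endothelial markers together held 2.77 to 5.13 CPM in CTL and 2.82 to 4.94 CPM with TGF-β1. Of these markers 3 were tested and none was called, while Pecam1 had 3 to 16 reads a library and Cdh5 0 to 16.

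Hdac4, the founding member of the class and a regulator of chondrocyte hypertrophy, stayed near its control level. It lies on chromosome 1 from 91928779 to 92195699, minus strand (ENSMUSG00000026313.14). Its normalized read counts were 1468, 1577 and 1403 in CTL and 1681, 1623 and 1568 with TGF-β1. The treated range reached into the control range, with TGF-β1 replicate 3 below CTL replicate 2. The means were 1483 ± 88.0 and 1624 ± 56.5 (SD, n = 3), a log2 difference of 0.13 (SE 0.06), or 0.18 without both replicate 2 cultures. An antisense lincRNA, Gm26720, covers 22.4% of the Hdac4 exon bases and had 0 counts in all 6 libraries. The strand setting of the counting is not given. Reads on these shared bases may have been dropped as ambiguous, so the 0 does not show that the overlap cost Hdac4 no reads.

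Per kilobase of exon, which allows genes to be compared, the class IIa transcripts kept Hdac7 on top and changed their order below it. All 3 CTL cultures ranked Hdac7, Hdac5, Hdac4 and Hdac9 from high to low. All 3 TGF-β1 cultures ranked Hdac7, Hdac9, Hdac5 and Hdac4. In CPM per kb, Hdac7 went from 20.1 ± 2.47 to 13.8 ± 1.40 and Hdac9 from 1.75 ± 0.14 to 6.17 ± 0.32 (SD, n = 3). Hdac5 went from 6.04 ± 0.29 to 4.07 ± 0.40 and Hdac4 from 2.96 ± 0.18 to 3.24 ± 0.11 in the same unit. No neighbours in either order had overlapping values within a group. Hdac4 would read too low if reads on the bases it shares with Gm26720 were dropped. Its place below Hdac5 with TGF-β1 is therefore not settled.

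The sum of the 4 genes had a log2 difference of -0.17, nearer to 0 than those of Hdac5, Hdac7 and Hdac9 and slightly farther from it than that of Hdac4. It lay between 28.6 and 33.4 CPM per kb in CTL and between 25.7 and 28.1 with TGF-β1, with means of 30.8 ± 2.41 and 27.3 ± 1.37. The gap between the lowest control and the highest treated culture was smaller than either SD. Within that sum the share of Hdac9 went from 5.72% ± 0.85 to 22.6% ± 0.95, and the share of Hdac7 went from 65.0% ± 3.00 to 50.5% ± 3.12. Hdac5 went from 19.7% ± 2.12 to 15.0% ± 1.93 and Hdac4 from 9.62% ± 0.18 to 11.9% ± 0.31 (SD, n = 3). In replicates 1 and 3 alone, Hdac9 made up 6.05% and 6.35% in CTL and 23.2% and 23.1% with TGF-β1. These shares are set by the same changes described above and add no separate evidence. They also assume that the whole annotated exon length was transcribed: counted without length, the mean share of Hdac9 went from 9.88% to 33.4% and that of Hdac7 from 51.8% to 34.4%. On that scale Hdac9 lay above Hdac7 in TGF-β1 replicates 1 and 3, and Hdac4 lay above Hdac5 in all 3 treated cultures, so the order depends on the length correction.

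**Figure D2:**
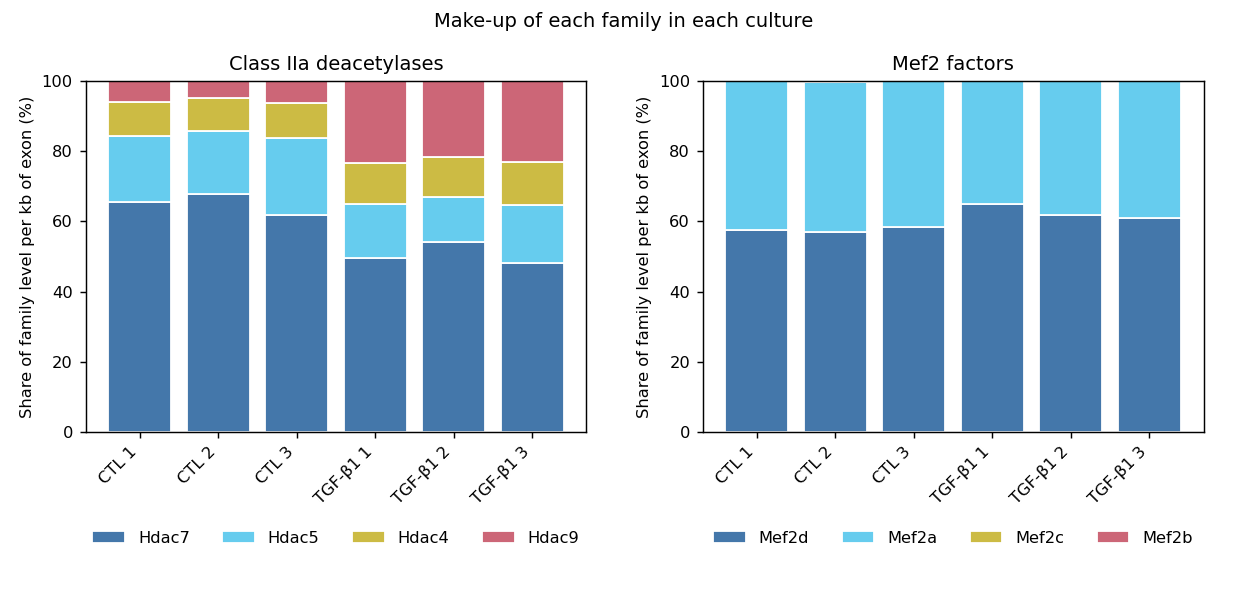
Share of each gene (vertical axis, % of the family's CPM per kb of exon) in each of the 6 cultures (horizontal axis), for the class IIa deacetylases and for the Mef2 genes. Hdac9 makes up 4.75% to 6.35% of the class IIa level in CTL and 21.5% to 23.2% with TGF-β1, and Mef2b and Mef2c are too low to be seen.

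Mef2d was the Mef2 gene that was higher with TGF-β1. It encodes a broadly expressed MEF2 factor and lies on the plus strand of chromosome 3 from 88142372 to 88172086 (ENSMUSG00000001419.16). Its normalized read counts were 2501, 2622 and 2505 in CTL and 3403, 3078 and 3034 with TGF-β1. The lowest treated culture was above the highest control. The mean went from 2543 ± 68.8 to 3172 ± 201 (SD, n = 3), a fold of 1.25 (log2 difference 0.32, SE 0.06). That placed Mef2d at rank 550 of the 793 genes called higher, far below Hdac9. On dropping CTL replicate 1 or CTL replicate 3 the difference was 0.31, on dropping TGF-β1 replicate 1 it was 0.27, and these 3 fits did not pass the threshold. Without both replicate 2 cultures it was 0.36. The antisense gene 1700113A16Rik shares 8.87% of the Mef2d exon bases and had 7 to 11 reads a library. Reads on those bases may likewise have been dropped as ambiguous.

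Mef2a, the other broadly expressed factor, was level. It lies on the minus strand of chromosome 7 from 67231163 to 67372858 (ENSMUSG00000030557.15). Its normalized read counts were 4503, 4801 and 4397 in CTL and 4473, 4673 and 4757 with TGF-β1. The treated values lay inside the control range. The means were 4567 ± 210 and 4634 ± 146 (SD, n = 3), a log2 difference of 0.02 (SE 0.05) whose sign turned with the normalization, to -0.053 with library size only. Without both replicate 2 cultures it was 0.05.

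Mef2c, the factor needed for heart looping and for muscle, bone and lymphoid programmes, was hardly transcribed. It lies on the plus strand of chromosome 13 from 83504034 to 83667080 (ENSMUSG00000005583.15) and had 5, 13 and 1 reads in CTL and 4, 4 and 3 with TGF-β1. The highest of these is 0.394 CPM after normalization, and 3 reads correspond to 0.0878 to 0.106 CPM in these libraries before it. Mef2c was below the filter of the fit used here. In the fits without that filter its difference was -0.76 in edgeR and -0.75 in DESeq2. The edgeR fit did not call it and DESeq2 gave it no adjusted p, so a difference was not detectable at this depth. Mef2b, the remaining gene of the family, had at most 3 reads in a library and 0 in 4 of the 6. The Mef2 transcripts of these cultures were thus those of Mef2d and Mef2a.

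Per kilobase, Mef2d was above Mef2a in all 6 cultures. In CPM per kb, Mef2d went from 13.4 ± 0.36 to 16.7 ± 1.06 and Mef2a from 9.82 ± 0.45 to 9.96 ± 0.31. The share of Mef2d in the family went from 57.7% ± 0.62 to 62.6% ± 2.20 (SD, n = 3). Without the length correction Mef2a was ahead, with 64.2% in CTL and 59.4% with TGF-β1, because its exons are longer. The summed Mef2 level was 23.3 ± 0.86 CPM per kb in CTL and 26.7 ± 0.75 with TGF-β1.

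The MEF2 consensus, an A- and T-rich core framed by fixed ends, matched the start windows of 1 gene of each family. It matches on either strand in 183 of the 32851 windows (0.557%), and it was looked for with the windows of these genes already seen. The stretches are shown, 5′ to 3′ on the minus strand of RefSeq GRCm38.p6, because MEF2 and class IIa proteins meet on this element. Capitals mark the match.
Hdac5, chr11:102230173-102230292: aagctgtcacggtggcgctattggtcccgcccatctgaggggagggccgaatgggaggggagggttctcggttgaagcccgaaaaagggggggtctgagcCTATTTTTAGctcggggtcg
Mef2a, chr7:67372841-67372870: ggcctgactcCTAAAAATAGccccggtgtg
In Hdac5 the match CTATTTTTAG lies at -20 to -11 from the RefSeq start. The first bases after that start, searched as a whole, were not found in a GENCODE M21 transcript of Hdac5. Those of the Mef2a window were found in one of Mef2a. GENCODE begins Hdac5 at 102230166, a few bases inside the RefSeq start that follows 102230173, so the Hdac5 search could not have succeeded. In Mef2a the match CTAAAAATAG, which is the Hdac5 match read on the opposite strand, spans -2 to 8 and so covers the start itself. Hdac5 was lower with TGF-β1 and Mef2a was level. None of the 13 windows of the 7 genes held the SMAD palindrome GTCTAGAC, found in 0.213% of all windows, or a CArG box, the element of serum response factor, found in 1.63%. A match is a description of letters, and binding was not measured.

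The plot of fitted changes sets the 6 tested genes side by side under several ways of fitting. Hdac9 lay apart from the others under each of them. Hdac5 and Hdac7 had nearly the same change, and Mef2d and Hdac4 had small positive ones.

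**Figure D3:**
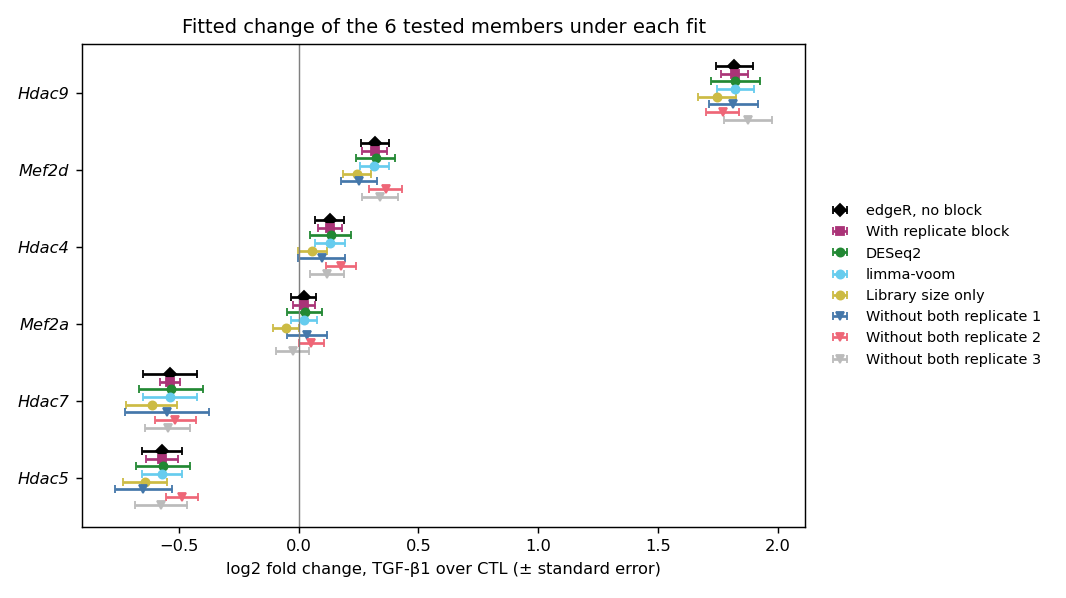
Fitted log2 fold change of TGF-β1 over CTL (horizontal axis, bars ± SE) for the 6 tested class IIa and Mef2 genes (vertical axis), with symbols giving the model or normalization. Hdac9 is at 1.82 in the fit used here, Mef2d at 0.32, Hdac4 at 0.13, Mef2a at 0.02, Hdac7 at -0.54 and Hdac5 at -0.57.

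The genes whose profile over the 6 cultures was closest to Hdac9, by the root mean square difference of centred log2 CPM over 13557 genes, were St8sia2, Tnc and Rasgrp3. St8sia2, a polysialyltransferase, differed from the Hdac9 profile by 0.057 and went from 3181 ± 230 to 10496 ± 779 normalized reads (log2 difference 1.72). Tnc, the matrix protein tenascin C, differed by 0.098 and had a log2 difference of 1.66. Rasgrp3, a Ras guanine exchange factor, had one of 1.65. Closest to Hdac5 were Bbs2 of the BBSome, Sgsh, the lysosomal heparan sulfamidase, and C2cd2. Their log2 differences were -0.57, -0.50 and -0.47, against -0.57 for Hdac5. Hdac5 had the largest fall of the 7 genes over all 6 cultures, but Hdac7 fell further without both replicate 2 cultures (-0.51 against -0.49). The 6 genes named for likeness were picked for it, so their numbers describe the match.

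Around the 7 genes, 106 genes that act on them or with them were listed by role, with earlier results of these data known. The edgeR quasi-likelihood test with adjustment over all 15862 genes called 9 of the 96 tested higher and 4 lower. Their median log2 difference was -0.014, against -0.0028 over all tested genes. Over all tested genes the test called 5% higher and 6.69% lower. With the culture number as a block it called 19 listed genes higher and 20 lower, and 15.1% and 19.1% of all genes. Nothing is read from these counts or from those of the single lists below. Without CTL replicate 1 it called 0 higher and 0 lower, without TGF-β1 replicate 1 it called 1 and 2, and without both replicate 2 cultures it called 11 and 10. In that last fit Ppp3ca (0.18) and Klf4 (-0.29) lost the calls they are given here. The groups did not overlap for the 13 called genes, and over all tested genes they did not overlap in 35.2%. The 13 were picked by their call in the same contrast, so nothing is read from this. Each of the 13 lost its call when at least 1 culture was left out.

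Kinases that phosphorylate class IIa proteins, or that activate such kinases, were listed together. Of these, 1 of 18 tested was higher and 2 were lower (1 and 6 with the block), with a median of -0.078. Camk4, the nuclear calcium/calmodulin-dependent kinase IV, went from 337 ± 111 to 3048 ± 1834 normalized reads. The rise was 3.17 on the log2 scale (SE 0.49, adjusted p = 0.0157, edgeR) and was already known when the list was made. Its counts were 246, 476 and 290 in CTL and 2036, 4986 and 2036 with TGF-β1, so replicate 2 was highest in both groups. Without TGF-β1 replicate 2 the difference was 2.56. The Camk4 and Prkd1 calls were lost when no filter on low counts was used. Camk1, a cytoplasmic relative, fell by 0.45 on the log2 scale (SE 0.05, adjusted p = 0.00722, edgeR). Prkd1, protein kinase D1, fell by 0.36 (SE 0.08, adjusted p = 0.0382, edgeR). Camk4 and Hdac9 were the largest rises among the kinases and the deacetylases named here.

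The 14-3-3 proteins, export factors and phosphatases that set where class IIa proteins sit had 2 of 17 higher and 0 lower (6 and 0 with the block), with a median of 0.092. Ywhag, 14-3-3 gamma, rose by 0.32 (SE 0.07, adjusted p = 0.0396, edgeR). Ppp3ca, a calcineurin catalytic subunit, rose by 0.22 (SE 0.05, adjusted p = 0.0354, edgeR). Both calls were lost when only library size was used for scaling.

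Of the corepressors, 2 of 14 were higher and 0 lower (3 and 1 with the block), with a median of 0.053. Rfxank, an ankyrin-repeat protein that binds class IIa deacetylases, went from 374 ± 24.4 to 567 ± 77.6 normalized reads and rose by 0.60 (SE 0.12, adjusted p = 0.0292, edgeR). Hdac3 itself had a difference of 0.08 (adjusted p = 0.551, edgeR).

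Outside class IIa, edgeR called 0 of 14 other deacetylases and sirtuins. At an unadjusted p under 0.05 there were 3, and DESeq2 also called 0. With the block, Hdac1 (0.16) and Hdac2 (0.19) were called higher, and Hdac11 (-0.51) and Sirt2 (-0.15) lower. Whether Hdac9 changed more than these genes was not tested.

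Of the MEF2 partners and regulators, 3 of 21 tested were higher and 0 lower (5 and 5 with the block), with a median of -0.019. Nfatc1, a calcineurin-driven factor that works with MEF2, rose by 0.68 (SE 0.10, adjusted p = 0.013, edgeR). Mrtfa, the actin-responsive coactivator, rose by 0.43 (SE 0.06, adjusted p = 0.0128, edgeR). Srf, the factor that MRTFA drives, rose by 0.40 (SE 0.07, adjusted p = 0.0247, edgeR).

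Of 21 genes known as MEF2 targets in muscle, neurons or vessels, 8 were too low to test, 1 was higher and 2 were lower (2 and 6 with the block). The median was -0.58, against -0.0028 over all genes, and no test of the list was made. This median is the value of 1 gene, Slc2a4 (SE 0.41), which had 10 to 32 reads a library and was not called. Arc, an activity-regulated neuronal gene with a MEF2 element in its enhancer, had 538, 300 and 518 reads in CTL and 2040, 1469 and 1844 with TGF-β1. It rose by 1.96 (SE 0.27, adjusted p = 0.0117, edgeR). Des, the muscle intermediate filament desmin, fell by 1.17 on the log2 scale (SE 0.16, adjusted p = 0.0113, edgeR). Klf4, a vascular and epithelial factor, fell by 0.45 on the log2 scale (SE 0.11, adjusted p = 0.0499, edgeR), a call lost with a minimum of 10 counts, with limma-voom and on leaving out any 1 culture. Without both replicate 2 cultures the Klf4 difference was -0.29.

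**Figure D4:**
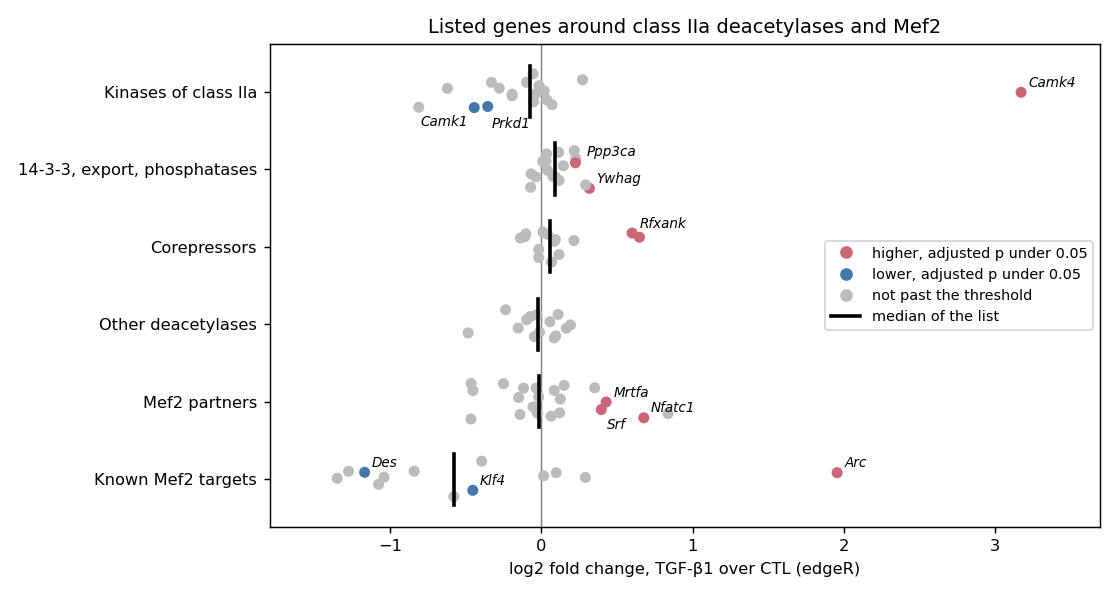
Fitted log2 fold change of TGF-β1 over CTL (horizontal axis) for each tested gene of the 6 lists (vertical axis), coloured by the edgeR call and with most called genes labelled, with a black bar at the list's median. Camk4 at 3.17 and Arc at 1.96 lie farthest to the right. The bar of the MEF2 target list sits at -0.58, the value of the low-count gene Slc2a4.

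Markers of other cell types moved as follows beside these genes, and their part in the results was not tested. The 6 muscle markers summed to 678 to 751 CPM in CTL and 704 to 1024 CPM with TGF-β1, nearly all from Smtn and Cnn1, with Myod1 at 0 in 5 libraries and 1 read in the other. None of the 5 tested muscle markers was called without the block, and 2 were called higher with it. The 6 fibroblast markers held 79.3 to 241 CPM in CTL and 51.5 to 123 CPM with TGF-β1, highest in replicate 2 of each group, with 0 of 5 tested called (2 lower with the block). The 6 leukocyte markers held 6.57 to 9.30 CPM and 4.22 to 8.05 CPM, with Csf1r lower and the T cell marker Cd3e at 0 in 5 libraries. Of the tubule markers, Pax8 (log2 difference -0.77) and Cdh16 (-1.50) were lower, 2 of 7, and with the block 5 of 7 were lower, adding Cdh1, Epcam and Pax2. The 7 proximal markers went from between 77.6 and 93.5 CPM to between 35.7 and 49.5 CPM, with Lrp2 and Aqp1 lower among the 4 tested, and 3 lower with the block. The 6 distal markers held 1.58 to 3.75 CPM in CTL and 1.54 to 2.15 CPM with TGF-β1, with no call among the 2 tested, and 1 lower with the block.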

How the data were processed

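RNA from 3 CTL and 3 TGF-β1 RTEC cultures was poly(A)-selected and sequenced as single-end 50-bp reads. Per the labels and methods, the authors trimmed reads with Trim Galore, aligned them to GRCm38 with STAR 2.4.1d and deposited raw counts per gene from HTSeq 0.6.1, which drops multi-mapped and ambiguous reads. The annotation release and the strand setting are not given in the sources used here. Between 25.4% and 25.9% of the reads in the files fell on no single gene and were left out. Of 46517 gene identifiers, 46005 matched GENCODE M21, used for names, coordinates and exon lengths. Reads carried no molecular identifiers, so floors cover counting error only.

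Genes were filtered by edgeR (4.0.16, R 4.3.3) filterByExpr, scaled by TMM and tested by the quasi-likelihood test of TGF-β1 against CTL with Benjamini-Hochberg adjustment. The threshold was an adjusted p under 0.05. Normalized read counts are counts scaled by TMM to the geometric mean library. Alternatives were DESeq2 (1.42.0), limma-voom (3.58.1), other scaling and filters, a replicate block and leaving out cultures. Scripts were tested on simulated data. Same-numbered cultures deviated together (r = 0.34, 0.684 and 0.572 across genes for numbers 1, 2 and 3, against -0.617 to 0.215 for other pairs). Deviations were taken from group means, which lowers the values of the other pairs when same-numbered ones are positive. The labels state no pairing. The fit used here does not pair the cultures, and the replicate block treats the same numbers as pairs. No 2 libraries were duplicates.

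The 7 genes, the lists and the motifs were chosen with earlier results of these data known. Named genes are the 7, Mef2b, all called genes of a list (the 4 with the largest change where a direction had over 6), Camk4, the treatment checks and the 3 genes most like the strongest riser and faller. Of the genes this rule names, 2 are not reported here. Promoters are RefSeq windows of GRCm38.p6, and all 7 genes had 1 or more.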

Additional observations from a re-analysis of the deposited data

How the results depend on the processing

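Hdac9, Mef2d, Hdac5 and Hdac7 kept their direction in all fits and their calls with DESeq2, limma-voom, DESeq2 size factors, library size only, either filter and the replicate block, and without both replicate 2 cultures. The replicate block called 2388 genes higher and 3037 lower (793 and 1061 without it), and 19 and 20 of the listed genes (9 and 4). It changed no call of the 7 genes. Library size only gave 508 higher and 1467 lower, DESeq2 8 listed genes lower, and leaving out both replicate 2 cultures 10 listed genes lower. Leaving out 1 culture gave 109 to 516 genes higher and 186 to 807 lower, 1 to 2 of the 7 genes higher and 0 to 2 lower, and 0 to 7 listed genes higher and 0 to 4 lower. The log2 differences then ran from -0.61 to -0.49 for Hdac5, -0.62 to -0.44 for Hdac7, 0.27 to 0.35 for Mef2d and -0.0055 (without CTL replicate 3) to 0.059 for Mef2a. Without both replicate 1 cultures no gene was called in edgeR, with 1938 at an unadjusted p under 0.05, and the differences were 1.81 for Hdac9, 0.25 for Mef2d, -0.65 for Hdac5 and -0.55 for Hdac7, so 0 of the 7 and 0 listed genes passed. Without both replicate 3 cultures 95 genes were higher and 190 lower, 1 of the 7 genes higher and 0 lower, and 0 and 1 listed genes, with 0.34 for Mef2d, -0.57 for Hdac5, -0.55 for Hdac7 and -0.023 for Mef2a. Mef2a was -0.053 with library size only. These fits keep 2 cultures a group; otherwise the cause was not tested. Shares counted without length were 17.9% and 18.9% for Hdac4 (CTL and TGF-β1), 51.8% and 34.4% for Hdac7, 9.88% and 33.4% for Hdac9, 64.2% and 59.4% for Mef2a, 35.7% and 40.6% for Mef2d, and 0.047% for Mef2c with TGF-β1. Among values of the 13 called listed genes and the 6 check genes under all alternatives, 218 kept their side of the threshold. Of the rest, 85 lost it, 1 gained it and 0 reversed. Apart from Ccn2, these genes were called in the fit used here, so no other could gain a call. With 1 to 13 reads a library, depth limits Mef2c, and gene counts cannot separate isoforms.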
